A study of Drosophila melanogaster with 9 samples.

Results

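Replication start sites that 2 Drosophila melanogaster cell lines have in common were compared pair by pair for efficiency rank, width and position. A pair consisted of an S2 origin and a Bg3 origin that overlapped each other by at least 1 bp and overlapped no further origin of the other list. Coordinates are as deposited, on dm3. Outside the mitochondrial sequence this gave 2773 pairs, from 7268 S2 and 8209 Bg3 origins, among 32247 regions in the 5 lists of the series. Of the pairs, 2331 lay on the 6 arms 2L, 2R, 3L, 3R, X and 4, and 442 on the 6 scaffolds 2LHet, 2RHet, 3LHet, 3RHet, XHet and YHet, which hold heterochromatin outside the assembled arms. The S2 side was S2-DRSC, a cultured line of embryonic origin, grown in Schneider's medium. The Bg3 side was ML-DmBG3-c2, a cultured line from the larval central nervous system, grown in Shields and Sang M3 medium with insulin. Neither line carried a labelled allele or agent. The list of each line pooled 2 replicates of short nascent strands of 0.5 to 2.5 kb, which the labels do not call separate cultures. The 3 further lists came from single fractions of S2 cells, with short (fraction 4), middle-sized (fraction 5) and long (fraction 6) fragments.

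A replication origin is licensed before S phase, when the origin recognition complex loads the MCM helicase on DNA, and it fires when that helicase is activated. Many more sites are licensed than fire in a given cell cycle, and in metazoans the choice among them varies from cell to cell and between cell types. Short nascent strands are the RNA-primed stretches of new DNA beside a site that has just fired, so their abundance at a site is used as a measure of how often it fires in the population. Lambda exonuclease, applied here in up to 5 rounds, digests DNA that lacks an RNA primer. Heterochromatin around the centromeres, on chromosome 4 and on the Y is rich in repeats and is known to replicate late in Drosophila.

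The deposited efficiency was a signal in reads per kb of origin. The scales of the lists differ, so each efficiency was turned into a percentile within its own list, from 0 for the weakest to 100 for the strongest origin. A percentile difference is Bg3 minus S2, and a pair was called when it reached 25 points or more. There was 1 list per line, so no difference was set against replicates, and line and library cannot be told apart. Intervals are 95% intervals (order statistics for medians, Wilson for shares). They cover counting of pairs only, and treat pairs as independent, although neighbouring pairs resembled each other. The lists hold no gene-level measure against which the identity of the cells could be checked.

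Within pairs the ranks of the lines were centred close to each other but widely scattered. The median percentile was 61.5 in S2 (interval 59.4 to 63.2) and 57.1 in Bg3 (55.3 to 59.1), and the median difference within a pair was -0.714 points (-1.54 to 0.00373). The interquartile range of that difference ran from -20.2 to 18.0 points. Bg3 was 25 points or more above S2 in 535 of 2773 pairs (19.3%), and S2 was 25 points or more above Bg3 in 576 (20.8%). A further 881 pairs (31.8%) lay within 10 points of each other. Spearman's correlation of efficiency over the 2773 pairs was 0.399, and that of width 0.455, both given as descriptions because the pairs of a list share its depth, caller and region.

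**Figure D1:**
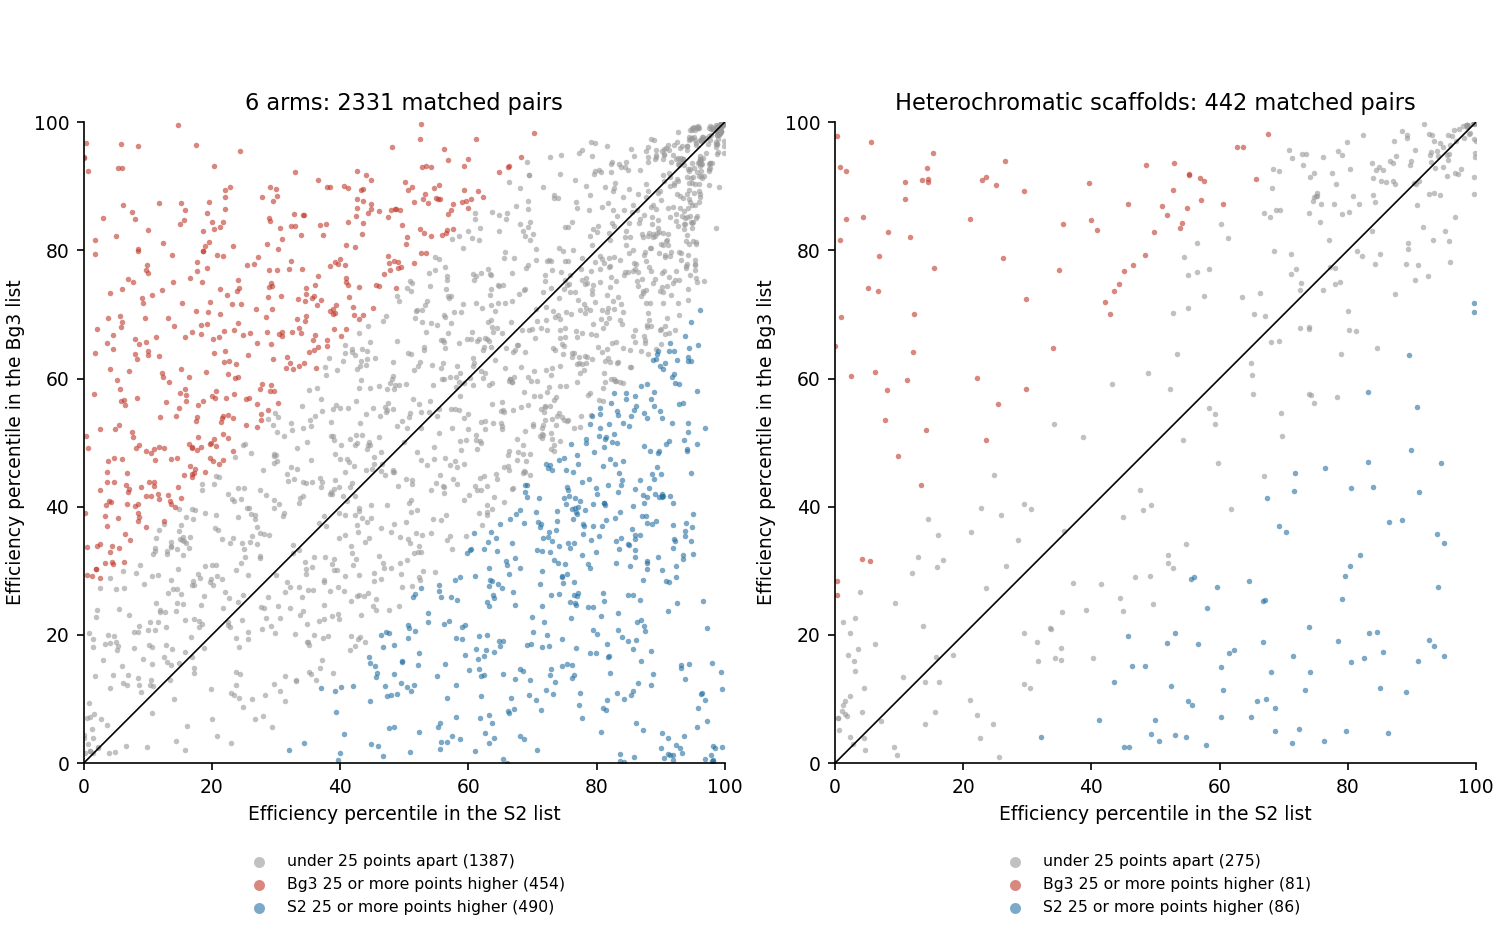
Efficiency percentile of each matched pair in the S2 list (x axis) against the Bg3 list (y axis), on the 6 arms (left, 2331 pairs) and on the heterochromatic scaffolds (right, 442 pairs). Red points are 25 points or more higher in Bg3, blue points 25 points or more higher in S2, grey points less far apart, and the line marks equal percentiles. Points gather at the upper right corner, where both lines rank high, and fill most of the remaining square.

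Small changes in reads per kb moved an origin far in rank, because most efficiencies were alike. The interquartile range of efficiency was 1364 to 1955 reads per kb in the S2 list, an upper over lower ratio of 1.43, and 1971 to 2659 in the Bg3 list, a ratio of 1.35. A paired origin held a median of 1296 reads in S2 and a weighted 1263 in Bg3. The 95% counting interval of its reads spanned a median of 12.1 percentile points in S2 and 10.7 in Bg3. In 2619 pairs both intervals could be computed. They did not overlap in 1869 of these (71.4%), with Bg3 above in 843 (32.2%) and S2 above in 1026 (39.2%). Reads are not independent molecules here, so these intervals cover counting error only.

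A second gauge of spread came from within the Bg3 list. Each Bg3 value was a weighted mean of 2 whole numbers, which were recovered for 2619 of the pairs. The labels and files do not say what they stand for. Ranked separately, the 2 numbers differed by a median of 10.8 points, where the lines differed by a median of 20.4 points over the same pairs. The 2 numbers were 25 points or more apart in 19.4% of pairs and the lines in 42.1%. Their Spearman correlation was 0.711, against 0.309 between the lines over the same pairs, which leave out the strongest Bg3 origins. The difference from S2 had the same sign with each number in 2163 of the 2619 pairs (82.6%).

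The pairs that ranked highest in both lines included 3 on heterochromatic scaffolds. The highest-ranked origin of both lists was the pair on 3RHet. It lay at 2308106 to 2308542 in S2 and 2308094 to 2308554 in Bg3, with centres at the same base. It had 2331080 reads per kb in S2 and 6533065 in Bg3, which are not on 1 scale. Its reads were 1018682 of the 42.1 M summed over the S2 list and a weighted 3011743 of 31.6 M in Bg3. The next was on YHet, at 4560 to 4762 in S2 and 4456 to 4774 in Bg3, at percentile 99.98 in both. The third, on XHet, was 4519 bp wide in S2 (183092 to 187610) and 3538 bp in Bg3 (183777 to 187314), at percentiles 99.97 and 99.91. The other two were on 3L at 23840938 to 23842879 in S2 and on X at 12331781 to 12332048 in S2, with percentiles from 99.84 to 99.92. All 5 pairs but that on X were held by all 3 S2 fractions, and that on X by 2. No control sample was there, so on the repeat-rich scaffolds reads piled up on repeats cannot be told apart from frequent firing.

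The pairs that differed most had in S2 a broad region and in Bg3 a narrow one, or the reverse. On 2R an S2 origin of 4834 bp (3994458 to 3999291) stood at percentile 98.2 with 12483 reads per kb. Its Bg3 partner was 257 bp wide (3994542 to 3994798) and stood at percentile 0.408 with 1244 reads per kb. On 3R an S2 origin of 5808 bp (6891262 to 6897069) was at percentile 98.0 and its Bg3 partner of 512 bp at 0.25. The next 3 pairs in this direction were on 2R (S2 start 10972447), X (10242786) and X (22175105), and S2 was 97.8, 97.1 and 96.7 points higher in them, as percentile differences of -97.8, -97.1 and -96.7. In these 5 pairs the S2 origin was between 4.5 and 31.3 times as wide as the Bg3 origin and was held by all 3 S2 fractions. The Bg3 origins among them held 320 to 902 weighted reads, against 17996 to 300191 reads in S2.

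In the opposite direction the Bg3 origin was the wider in all 5 leading pairs, by 2.42 to 11.7 times. On 3RHet an S2 origin of 496 bp (1068055 to 1068550) was at percentile 0.337 and its Bg3 partner of 1368 bp (1068041 to 1069408) at 97.9. On 2R a pair with S2 start 18731871 went from 0.323 in S2 to 96.8 in Bg3, and a pair with S2 start 18850929 from 0.0344 to 94.6. The last pairs were on 3L (S2 start 24348454, difference 94.4 points) and 3RHet (S2 start 94771, 92.2 points). These S2 origins were held by 0 of the S2 fractions in 3 pairs and by 1 fraction in 2. All 10 pairs named for their difference in percentile are extremes of the list and were chosen for it. They rest on the 1 bp overlap rule: the shared bases covered 3.2% to 41.4% of the wider origin, and 0 of the 10 pairs met a 50% overlap of both origins.

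On each chromosome the most divergent pair had its own size. It was -96.1 points on 2L (S2 10876497 to 10881876), where the S2 origin was 5380 bp and the Bg3 origin 320 bp wide. On chromosome 4 it was -68.0 points (S2 953546 to 955026), with like widths of 1481 and 1596 bp, but -2.63 points when origins were ranked by reads per origin instead of reads per kb. On 2LHet it was -59.95 points (S2 279743 to 281320), on 2RHet 78.5 (S2 2822528 to 2822982) and on 3LHet 91.3 (S2 1398635 to 1400150). On YHet it was -78.4 points (S2 280903 to 281538), with widths of 636 and 595 bp and centres 5.5 bp apart. Ranked by reads per origin, the differences were -13.8 points for the 2LHet pair, 24.2 for the 3LHet pair and -31.2 for the YHet pair, and the first 2 were no longer called.

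Common origins were narrower in Bg3, as were Bg3 origins in general. Over the whole lists the median width was 622 bp in S2 and 459 bp in Bg3, and over unpaired origins 563 and 414.5 bp. For the pairs the values were as follows. Median width was 727 bp in S2 (703 to 747) and 556 bp in Bg3 (539 to 574), and the median log2 ratio within a pair was -0.28 (-0.31 to -0.23), which is a Bg3 width 0.824 times that in S2. The Bg3 origin was the wider in 959 of 2773 pairs (34.6%). The Bg3 region lay wholly inside the S2 region in 1232 pairs (44.4%), the S2 region inside the Bg3 region in 608 (21.9%), and the regions were staggered in 933 (33.6%). When 50% of both regions had to overlap, which left 1899 pairs, the median log2 ratio was -0.08. The widest contrasts were on X, where an S2 origin of 5679 bp (706328 to 712006) met a Bg3 origin of 142 bp, and on 2R, where a Bg3 origin of 7141 bp (201178 to 208318) met an S2 origin of 412 bp.

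Width and rank were tied in S2 but hardly in Bg3, and the percentile difference followed the S2 width. Over the whole lists Spearman's correlation of width with efficiency was 0.578 in S2 and 0.0595 in Bg3, and over paired origins it was 0.559 and 0.23. In the fifth of pairs with the narrowest S2 origins (median 378 bp), the median percentile was 29.0 in S2 and 51.2 in Bg3. Bg3 was 25 points or more higher in 39.1% of them, against 19.3% over all pairs. In the fourth group (median 1005 bp) the medians were 74.1 and 59.2. There S2 was 25 points or more higher in 31.8%, against 20.8% over all pairs. In the widest group (median 2192 bp) both lines ranked high, at 87.4 and 76.4. The correlation of the percentile difference with S2 width was -0.398, and with Bg3 width 0.00412. The S2 percentile enters both the difference and this relation, so the groups are a description.

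**Figure D2:**
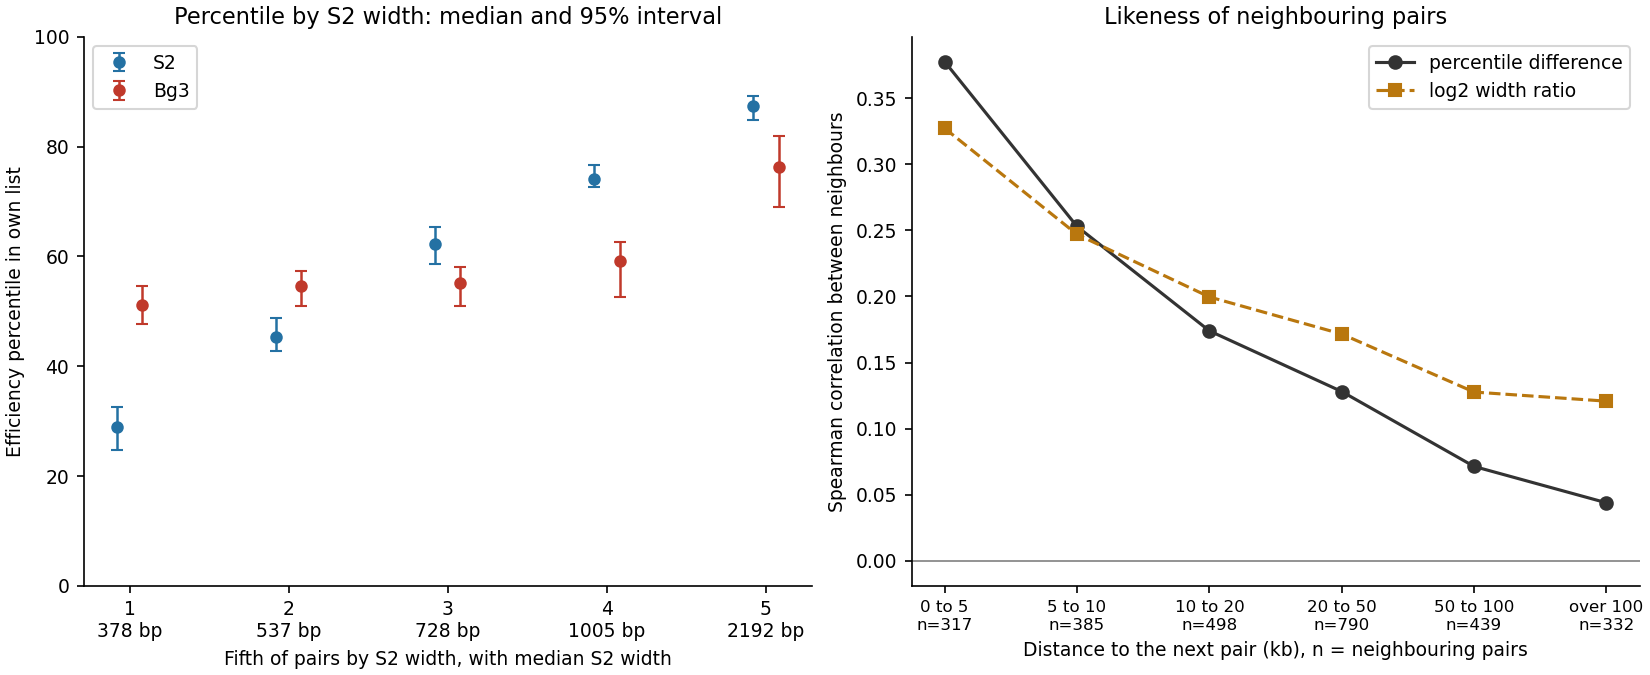
Left: median efficiency percentile in S2 (blue) and Bg3 (red) for 5 equal groups of pairs by S2 width, with 95% intervals of the median. Right: Spearman correlation between neighbouring pairs of the same sequence, of the percentile difference (circles) and of the log2 width ratio (squares), by the distance in kb between them. The S2 medians run from 29.0 to 87.4 across the groups and the Bg3 medians from 51.2 to 76.4, and the correlation of the difference goes from 0.378 under 5 kb to 0.0439 over 100 kb.

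Pairs with like boundaries more often had like ranks, but they also ranked high. In 139 pairs (5.01%) both ends lay within 25 bp of each other. Of these 54.7% were within 10 percentile points (46.4 to 62.7), against 30.6% of the other 2634 (28.8 to 32.3), and Spearman's correlation of efficiency was 0.735 against 0.371. Where both origins were 4 kb or wider, 89 pairs (88.1%) were within 10 points and 2 were 25 points or more higher in S2. Both origins of such pairs rank near the top, which leaves little room for a difference. In pairs with the Bg3 region inside the S2 region the median difference was -10.7 points (-12.7 to -8.56), and with the S2 region inside the Bg3 region it was 9.6 points (7.58 to 12.2). Staggered pairs had a median of 0.169 points (-0.715 to 1.48). The line with the wider footprint was thus more often the line with the higher rank.

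The centres of paired origins lay a median of 97.5 bp apart (90.5 to 103). They were within 10 bp in 247 pairs, within 100 bp in 1418 (51.1%) and within 1000 bp in 97.4%. Relative to the mean width of the pair the median distance was 0.151. The Bg3 centre lay at the higher coordinate in 1340 pairs and at the lower in 1425, and the median signed offset was -3.5 bp (-8 to 0.5). The largest distance, 3908 bp, was on 3R, where a Bg3 origin at 3528818 to 3529881 overlapped by 257 bp the end of an S2 origin at 3521809 to 3529074. Rank and position were weakly linked, with a Spearman correlation of 0.21 between the absolute percentile difference and the relative distance.

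At the edge of the definition, the smallest overlaps were 2 bp on 2R (S2 16855878 to 16856388, percentiles 15.1 in S2 and 41.4 in Bg3), 3 bp on 2R (S2 3689606 to 3689923, 8.83 and 30.9) and 5 bp on 2L (S2 1605713 to 1606091, 38.6 and 51.1). Just outside it, an S2 origin on 3R at 6259940 (percentile 6.06) started 2 bp after the end of a Bg3 origin (67.96). Gaps of 3 and 4 bp separated an S2 origin on 2R at 3413578 (16.2) from a Bg3 origin (38.1) and one on 2RHet at 1986025 (73.2) from another (34.5).

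The arms did not behave alike. On 2L the median difference was -5.65 points (-8.28 to -2.84) over 519 pairs, and S2 was 25 points or more higher in 27.7%, against the 20.8% over all pairs. On 3R it was -4.34 points (-6.81 to -1.6) over 560 pairs. On 3L it was 3.88 points (1.09 to 7.01) over 535 pairs, and Bg3 was 25 points or more higher in 27.9%, against 19.3% over all pairs. On 2R (538 pairs) and X (155 pairs) the intervals, -2.76 to 1.63 and -2.26 to 1.6, included 0. S2 was 25 points or more higher in 25.2% of the pairs on X and Bg3 in 14.8%, against 20.8% and 19.3% over all pairs. The interval of each share on X included the share over all pairs. The 24 pairs of chromosome 4 ranked high in both lines (medians 95.7 in S2 and 93.8 in Bg3). Of these, 16 (66.7%, 46.7 to 82.0) were within 10 points, against 31.8% over all pairs. High rank itself went with small differences: in the fifth of all pairs with the highest summed percentile the share was 73.9% (70.1 to 77.4).

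Arms 2L and 3R were also lowest in width ratio. The median log2 ratio was -0.54 on 2L (-0.66 to -0.42), -0.50 on 3R (-0.64 to -0.39), -0.35 on 2R (-0.45 to -0.27) and -0.14 on 3L (-0.26 to -0.03). On X it was -0.01 (-0.09 to 0.05) and on chromosome 4 it was 0.03 (-0.14 to 0.54). Bg3 was the wider in 24.5% of pairs on 2L and 49.0% on X, against 34.6% over all pairs. Among the 786 pairs whose widths were within 20% of each other, a group chosen after seeing the data, the median percentile difference was -0.717 points on 2L (-3.11 to 0.673), 0.575 on 3L (-0.903 to 5.17) and -1.84 on 3R (-5.25 to 0.947), so that each interval included 0. Distances between centres were alike, from 96.25 to 98.75 bp on the large autosomal arms and 76.5 bp on X (56 to 106.5).

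**Figure D3:**
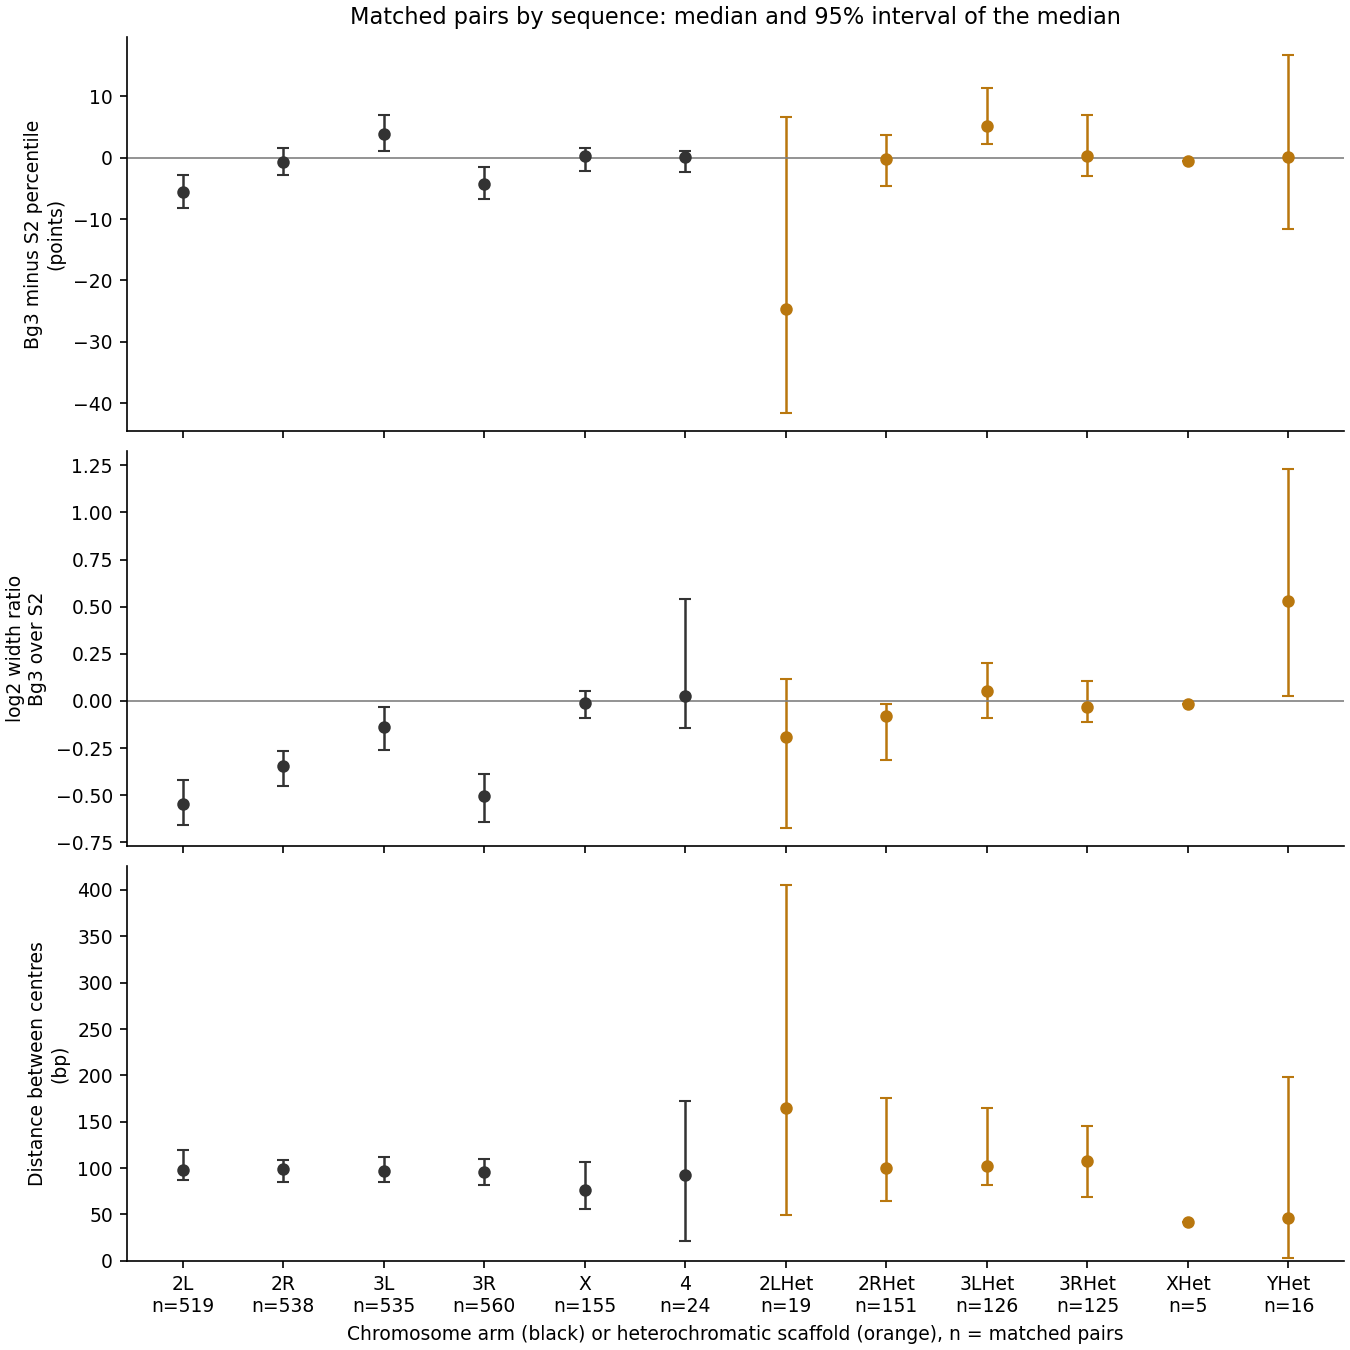
Median percentile difference (top, Bg3 minus S2, in points), median log2 width ratio (middle, Bg3 over S2) and median distance between centres (bottom, in bp) of the pairs on each arm (black) and heterochromatic scaffold (orange), with 95% intervals of the median and none for the 5 pairs of XHet. Arms 2L and 3R lie below 0 in the upper panels and 3L above 0 in the top panel, while the distances overlap throughout.

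The excess on 3L came from its distal end. Each large arm was cut into 10 equal parts, which on 3L were 2.45 Mb long. In the first part of 3L, 100 pairs had a median difference of 26.9 points (20.7 to 35.1). For the 18 of them with widths within 20% it was 14.8 points, with an interval of -0.0281 to 41.8. There S2 stood at its own list's middle, at a median percentile of 50.5 (44.1 to 58.8), and Bg3 at 84.0 (81.6 to 86.3). Bg3 was 25 points or more higher in 51 of the 100 pairs and S2 in 0, with an upper Wilson limit of 3.7%. Over all pairs these shares were 19.3% and 20.8%. Bg3 origins were also wider there, 1069.5 against 708.5 bp, with a median log2 ratio of 0.54 (0.39 to 0.85) and 73 of 100 pairs wider in Bg3. Centres were a median of 153.5 bp apart (127 to 188). With this part left out, an alternative added once the values were known, the median on 3L was -0.459 points (-2.55 to 2.1). That interval included 0.

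The shift in that stretch was not limited to paired origins. The 277 Bg3 origins outside the pairs in the first part of 3L had a median percentile of 79.7 (75.96 to 81.9) and a median width of 898 bp, where unpaired Bg3 origins of the whole list had 46.2 and 414.5 bp. The 86 unpaired S2 origins there had a median percentile of 60.7 (49.7 to 66.7), against 43.8 over the list. In the second part of 3L the paired difference was -1.69 points (-8.64 to 7.82), and unpaired Bg3 origins were at 52.4. In this stretch Bg3 origins were thus high in rank and wide whether paired or not.

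Elsewhere along the arms the differences were smaller, and intervals that left out 0 lay more often on the side of S2. Of 50 parts, 44 had 20 pairs or more, and their medians ran from -20.7 to 26.9 points. The interval lay below 0 in 8 and above 0 in 3. The lowest was the fourth part of 2R (-20.7, -29.0 to -3.94), where the width ratio was -0.87 on the log2 scale, followed by the ninth part of 2L (-18.8, -28.9 to -8.93). The others above 0 besides 3L were the last part of 2R (8.88, 1.1 to 21.5) and the fifth part of X (3.39, 0.243 to 4.12). In that part of X 22 pairs ranked near the top in both lines (median S2 percentile 95.4), 19 were within 10 points, and Bg3 was the wider in 20. Ranks this high leave little room for a difference. For width, the interval lay below 0 in 32 of the 44 parts, and above 0 in the first part of 3L and the fifth of X.

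**Figure D4:**
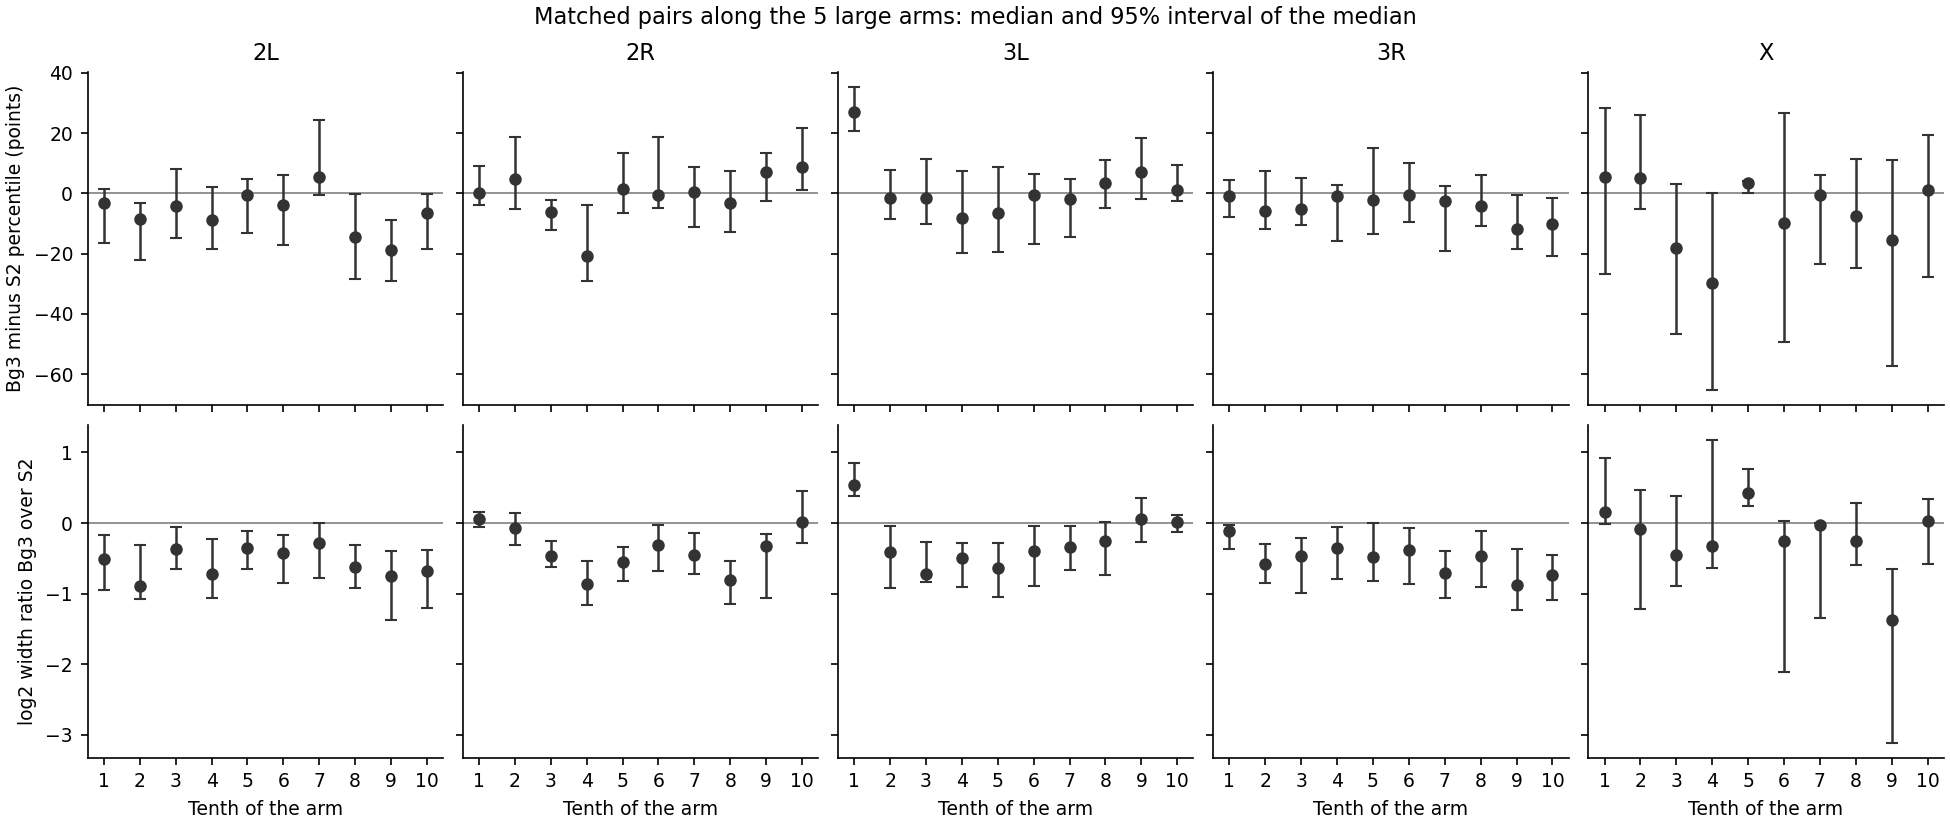
Median percentile difference (top row, Bg3 minus S2, in points) and median log2 width ratio (bottom row) of matched pairs in 10 equal parts of each large arm, with 95% intervals of the median. The first part of 3L stands at 26.9 points and a log2 width ratio of 0.54, and most other parts lie at or below 0 in the bottom row.

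Neighbouring pairs resembled each other over short distances. For 317 neighbours within 5 kb the Spearman correlation of their percentile differences was 0.378, and 63.1% had the same sign. It was 0.253 at 5 to 10 kb, 0.174 at 10 to 20 kb, 0.128 at 20 to 50 kb and 0.0439 for 332 neighbours over 100 kb apart. Width ratios behaved alike, from 0.327 within 5 kb to 0.121 over 100 kb. Percentiles themselves were more alike within 5 kb, at 0.46 in S2 and 0.56 in Bg3. Neighbours share libraries, depth and region, and no p is given.

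Local spacing went with both rank and width. Each pair was classed by whether another origin of the same list lay within 5 kb in S2, in Bg3, in both or in neither. The 393 pairs with a close neighbour only in S2 had a median difference of -12.1 points (-16.6 to -8.1), and S2 was 25 points or more higher in 35.6%, against 20.8% over all pairs. Their median percentile was 66.7 in S2 and 46.7 in Bg3, and their log2 width ratio was -0.66 (-0.81 to -0.52). The 520 pairs with a close neighbour only in Bg3 had a median of 4.11 points (1.58 to 6.71), Bg3 25 points or more higher in 26.7% against 19.3% over all pairs, and a log2 width ratio of -0.05 (-0.17 to 0.00439). Pairs with a neighbour in both lines (1036) or in neither (824) had medians of -0.385 (-2.25 to 0.725) and -0.793 (-1.92 to 0.243). The rank difference thus leaned towards the line that had the close neighbour.

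Without the first part of 3L the median of the S2-only class was -13.0 points (-17.7 to -8.84) and that of the Bg3-only class 2.49 (0.865 to 5.29). With widths within 20%, the median of the S2-only class was -0.73 points (-9.42 to 1.2, 87 pairs) and that of the Bg3-only class 1.64 (-0.504 to 8.65, 129 pairs), and both intervals included 0. Pairs with a neighbour in neither line had a Spearman correlation of 0.508 and centres 81.25 bp apart (73 to 91), and pairs with one in both had 0.413 and 98 bp (86.5 to 109.5). Relative to mean width the distances of these classes were 0.139 (0.122 to 0.16) and 0.136 (0.124 to 0.149). The S2-only class had 0.166, and the Bg3-only class 0.384 with centres 125 bp apart (110 to 138.5). On the arms, the correlation by the geometric mean of both gaps was 0.144 for 244 pairs at 1 to 2 kb, 0.417 for 587 at 5 to 10 kb and 0.55 for 154 over 20 kb. The closest group, under 1 kb, did not follow this order, with 0.399 over 361 pairs.

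**Figure D5:**
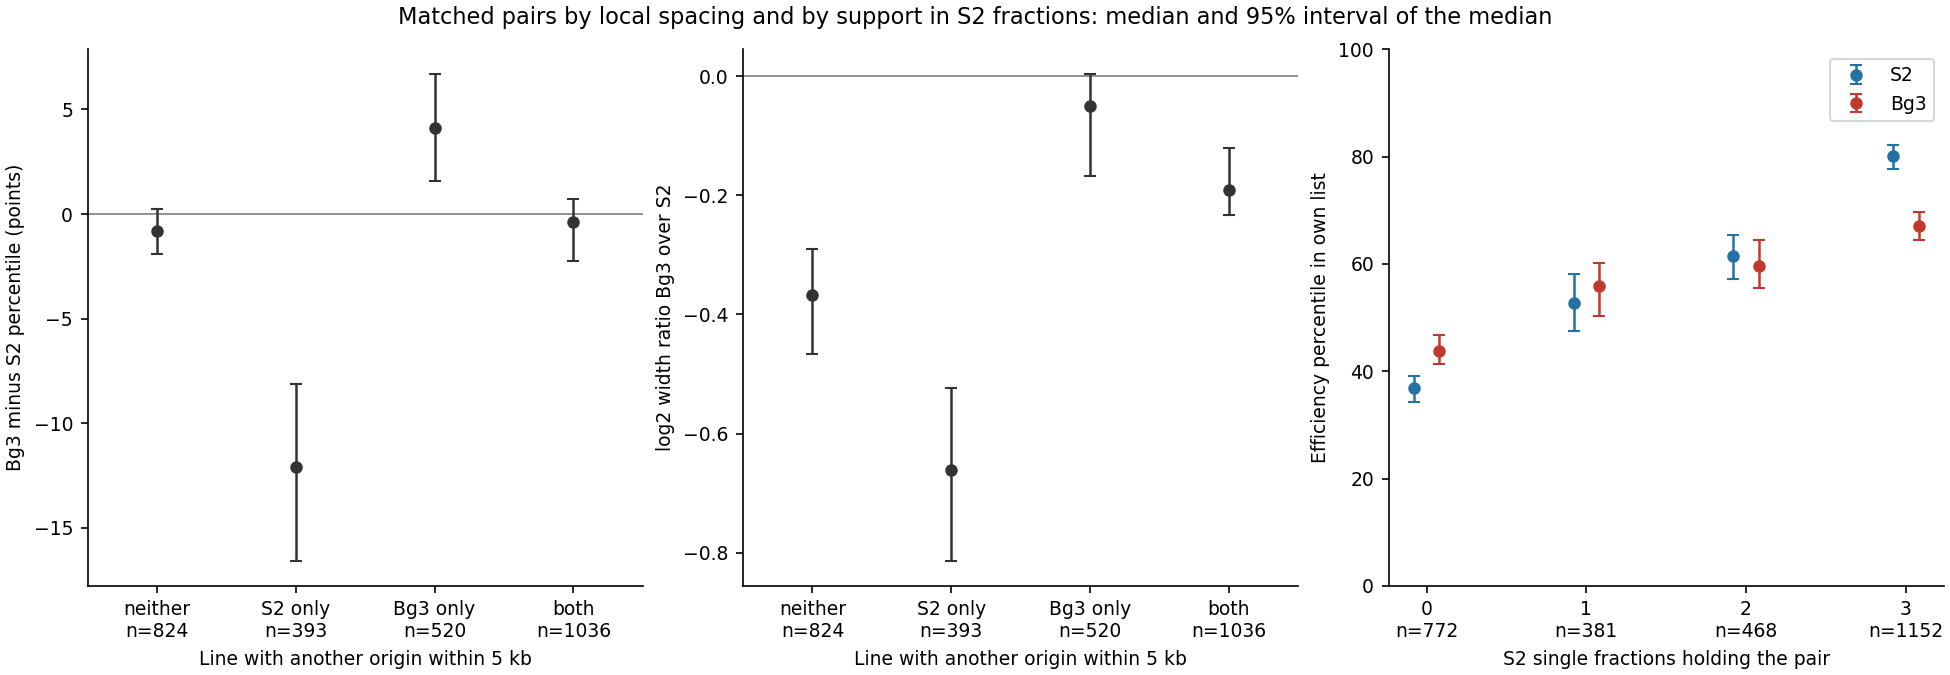
Median percentile difference (left, points) and median log2 width ratio (middle) of pairs by the line in which another origin lay within 5 kb, and median efficiency percentile in S2 (blue) and Bg3 (red) by the number of S2 single fractions that held the pair (right), with 95% intervals of the median. Pairs with a close neighbour in S2 only lie lowest in the left and middle panels, and percentiles run from 36.9 to 80.1 in S2 and from 43.7 to 67.1 in Bg3.

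On the heterochromatic scaffolds widths were more evenly balanced between the lines than over all arms. The median log2 ratio was -0.02 (-0.08 to 0.02) over 442 pairs, against -0.34 (-0.39 to -0.3) on the arms, and Bg3 was the wider in 47.7% against 32.1%. This balance was not particular to scaffolds, because X and chromosome 4 had medians of -0.01 and 0.03. Single scaffold pairs still differed in width, with an interquartile range of -0.54 to 0.42, against -1.1 to 0.11 on the arms. Scaffold origins were wide in both lines, 911 bp in S2 and 936.5 bp in Bg3, and ranked at medians of 65.3 and 69.9. The median difference was 0.881 points (-0.338 to 3.64), against -0.953 (-2.21 to -0.389) on the arms. The share of called pairs, 18.3% with Bg3 higher and 19.5% with S2 higher, was near the 19.3% and 20.8% over all pairs. Spearman's correlation was 0.522 for efficiency and 0.622 for width, against 0.373 and 0.404 on the arms. Centres lay 100.75 bp apart (83 to 127), much as on the arms (96.5, 90 to 103).

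The scaffolds differed among themselves. The 3LHet scaffold had a median difference of 5.14 points (2.21 to 11.3) over 126 pairs. On 2LHet, 19 pairs had a median of -24.7 points, but its interval ran from -41.6 to 6.65. The 151 pairs of 2RHet and the 125 of 3RHet had medians of -0.183 (-4.65 to 3.74) and 0.194 (-2.94 to 6.98). On YHet Bg3 was the wider in 14 of 16 pairs, with a median log2 ratio of 0.53 (0.02 to 1.23), while the median percentiles were 90.1 in S2 and 84.0 in Bg3. Of the 5 pairs of XHet, 4 were within 10 points, and the median difference was -0.569 points. Their median percentiles, 98.5 in S2 and 97.6 in Bg3, left little room for a difference. By mean gap, 181 scaffold pairs under 1 kb had a correlation of 0.626 and a median difference of 4.08 points (0.777 to 7.19). The 75 scaffold pairs at 1 to 2 kb had a correlation of 0.337 and a median of -5.9 points (-14.2 to 2.23), so the lower correlation at 1 to 2 kb was seen on scaffolds and arms.

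The S2 single fractions gave a readout that the pairing did not use. A pair counted as held by a fraction when its S2 origin overlapped a region of that list. The S2 percentile was 36.9 (34.3 to 39.2) for 772 pairs in no fraction and 80.1 (77.8 to 82.1) for 1152 pairs in all 3. The Bg3 percentile of the same pairs went the same way, from 43.7 (41.3 to 46.8) to 67.1 (64.4 to 69.7), although the fractions came from S2 cells only. The rank difference, of which the S2 percentile is a part, was 8.34 points (5.81 to 10.7) in no fraction and -4.63 (-6.55 to -3.2) in all 3. Spearman's correlation between the lines was 0.163 for pairs in no fraction and 0.48 for pairs in all 3. This contrast was not set apart from that in S2 rank. In the middle 3 of 5 equal groups by S2 percentile, the correlation was -0.0464, -0.0284 and 0.0491 for no fraction. For all 3 it was -0.0542, 0.0674 and 0.0665. In the lowest group it was 0.0869 and 0.253, and in the top group 0.271 over 15 pairs and 0.547 over 424.

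Within groups of like S2 rank, the contrast in rank difference between pairs in no fraction and in all 3 ran the other way. Most intervals overlapped. Pairs were divided into 5 equal groups by S2 percentile. From the lowest to the highest group the median difference was 26.3, 7.69, -12.9, -26.05 and -23.1 points for pairs in no fraction. For pairs in all 3 it was 32.1, 8.78, -8.37, -15.9 and -4.29 points, which is higher in each group. In the fourth group, the S2 medians were 79.2 for 85 pairs in no fraction and 80.4 for 294 pairs in all 3, while the Bg3 medians were 50.6 (40.5 to 59.5) and 63.6 (59.7 to 67.3). In the top group they were 69.9 (54.9 to 83.5) for 15 pairs and 90.6 (87.5 to 92.9) for 424, with S2 medians of 89.9 and 94.7. In the second group the Bg3 medians, 47.0 and 47.4, were close. Pairs in all 3 fractions were also wider in S2, with 962 against 821 bp in the fourth group, so width moved with this contrast and its part was not tested.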

How the data were processed

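Per the labels, each pooled list stands for 2 replicates of its line. Per the submitters' processing notes, the build was dm3 and the tools were MACS 1.4.1, SAMtools 0.1.19 and Bowtie2 2.2.0, with no settings stated there. The authors' deposited efficiency is a signal in reads per kb: multiplied by width it was a whole number, within 0.001, at 100% of S2 origins, and for Bg3 a weighted mean of 2 whole numbers (weights 0.473 and 0.527). Exactly 1 such pair, with neither number over 3 times the other, was found for 7941 of 7995 Bg3 origins of up to 20000 reads, against 0.55% of random values. Summed over its origins, the S2 list held 42.1 M reads and the Bg3 list a weighted 31.6 M, which are not library totals. Width and coordinates are used as deposited.

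Percentiles were taken within each list without the mitochondrial sequence, ties averaged. The Bg3 counting interval treats the weighted sum as a scaled Poisson count. No test between lines was possible with 1 list each. Origins were named by rule: the 5 pairs highest in both lines, the 5 largest differences each way, the 3 largest width ratios each way and centre distances, the largest difference per sequence, and the pairs at the overlap limit. Members, groups and rules were chosen with earlier results of these data known. Alternatives covered overlap, sequences, width, merging, ranking, thresholds and the 2 Bg3 numbers. Code was tested on simulated data (Python 3.11.15, NumPy 2.4.6, SciPy 1.17.1, pandas 2.3.3). Gene annotation of dm3 was not used here.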

Additional observations from a re-analysis of the deposited data

Results flagged for a closer look

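The mitochondrial sequence, which was left out of the pairing, carried regions in some lists and not in others. The Bg3 list held 3 origins there and the S2 list 0. The Bg3 origins, at 0 to 878, 17691 to 18033 and 18587 to 19228, had 7663, 2404 and 1529 reads per kb, above 97.5%, 61.6% and 4.1% of the Bg3 list. Of the S2 single fractions, fraction 5 held 1 region (19064 to 19495), fraction 6 held 1 (19025 to 19500) and fraction 4 held 0. They stand out as signal outside the main comparison, and no control sample was there to set them against.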

How the results depend on the processing

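No paired analysis was possible because each list pools its replicates and carries no replicate columns, so leaving out a replicate was not run either. Alternatives on the first part of 3L, on like widths and on the separate Bg3 numbers by region or spacing were chosen after seeing the data. The cause of the changes below was not tested. Of the values recomputed for groups of pairs, 118 stayed within the interval of the main value and 58 moved outside it. A further 1, whose main interval left out 0, changed sign. Sign changes were not counted where the main interval included 0, and some of those values did change sign. Examples under some settings are the median differences over all pairs, on 2R, on X and on the scaffolds. Some of the 58 changed the threshold or the unit itself. Among the 118, the median difference in log2 efficiency relative to the list median was -0.076 (-0.1 to -0.049). That value is not in points, so its place within an interval in points has no meaning. The named pairs were less stable: ranked by reads per origin, 16 of 29 moved by over 10 points and 1 reversed, such as -97.8 to -54.0 (2R at 10972447), -85.3 to -24.99 (3R at 3521809) and 11.8 to 78.2 points (X at 4726603). The median percentile difference over all pairs was 0.122 without 2L, 0.433 ranked among paired origins and 0.133 on reads per origin. These intervals included 0. Other settings gave intervals below 0: -1.53 (-2.68 to -0.67) without 3L, -0.944 (-2.04 to -0.488) on the arms alone and -0.772 (-1.77 to -0.0281) without X. With the first and second Bg3 number, over 2619 pairs, it was -1.44 (-2.46 to -0.141) and -1.21 (-2.74 to -0.0623).

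With 50% of both origins overlapping, Bg3 was 25 points or more higher in 16.9% and S2 in 16.3%, the log2 width ratio was -0.077 (2L -0.19, 2R -0.15, 3L -0.00052, 3R -0.15, first part of 3L 0.36), 41.2% were wider in Bg3, centres were 66 bp apart with 63.3% within 100 bp, and Spearman's correlation was 0.579. It was 0.36 for origins under 4 kb and 0.44 on reads per origin. With the first and second Bg3 number alone, over the 2619 pairs that have both, it was 0.322 and 0.251, where the deposited value gave 0.309 over those pairs. S2 was 25 points or more higher in 23.3% and 24.6%, against 22.0% over those pairs. With the second number, Bg3 was higher in 21.0%, against 20.1%, and the median difference was -9.14 on 2L, -3.21 on X and -2.64 with no close neighbour, where the first gave 0.385.

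The share with Bg3 higher was 17.2% without 3L, and that with S2 higher 19.2% without 2L and 19.1% ranked among paired origins. At 10 points the shares were 32.3% and 35.9%, and at 50 points 5.77% and 7.68%. The log2 width ratio was -0.34 on the arms, -0.22 without 2L and -0.22 without 3R. Bg3 was the wider in 32.1% on the arms, 36.9% without 2L, 32.7% without 3L, 37.1% without 3R and 36.5% with origins within 1 kb merged. Merging put centres 139.5 bp apart, with 41.1% within 100 bp. Within 50 and 200 bp lay 32.2% and 73.4%, and relative to mean width the distance was 0.151.

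Without its first part, 3L had a median difference of -0.459 points (-2.55 to 2.1), an interval that included 0, and a log2 width ratio of -0.29. Among like widths the median difference was -0.717 on 2L, 0.575 on 3L, 14.8 in the first part of 3L (-0.0281 to 41.8) and -0.73 for a close neighbour in S2 only, which had -7.69 at 10 kb. For a neighbour in Bg3 only the log2 width ratio was 0.017 at 2 kb, and for both it was -0.0799 at 2 kb and -0.24 at 10 kb. With 50% overlap of both regions for a fraction, pairs in no fraction had 4.36 points and a log2 width ratio of -0.34, and pairs in all 3 had -0.12. The pair on 2R at 16855878 turned to -10.04 points on reads per origin. Library depth and replicate spread are unknown, which limits every comparison between the lines.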
